A study of Mus musculus with 6 samples.

Results

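The genes described are 10 members of 3 linked families of lymphoid transcription regulators: the Ikaros factors Ikzf1, Ikzf2, Ikzf3 and Ikzf5, the E proteins Tcf3, Tcf4 and Tcf12, and the Id proteins Id1, Id2 and Id3. They were taken by name, and all 10 were measured among the 18193 genes of the array. Together they had 29 probe sets, each a group of short probes against one transcript, of 45037 that were not controls, and no probe set carried a member's symbol beside another gene's. The brightest probe set of a gene on average stands for it, and the others are given as a check.

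Ikaros factors are zinc finger proteins that bind DNA as dimers and recruit chromatin remodelling and deacetylase complexes such as NuRD. Ikzf1 (Ikaros) is needed for lymphoid development from multipotent progenitors, Ikzf2 (Helios) and Ikzf3 (Aiolos) are its relatives best known in T cells and B cells, and Ikzf5 (Pegasus) is a more distant relative. E proteins are basic helix-loop-helix activators that bind E-box sequences as dimers with each other or with tissue-specific partners such as Tal1. Tcf3 encodes E2A with its forms E12 and E47, Tcf4 encodes E2-2, and Tcf12 encodes HEB. Id proteins have the helix-loop-helix but no DNA-binding region, so an E protein bound to one cannot bind DNA.

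RNA came from wild-type C57BL/6 mice, and the labels name no altered allele or agent for either group. Lineage-low, Sca1+, Kit+ cells (LSK), which hold the stem cells and multipotent progenitors, were set against lineage-low, Sca1-, Kit+ cells (LK), the committed progenitors, with 3 samples of each on 1 array apiece. Both are sorted mixtures, and the labels do not say how many animals a sample came from or that the samples came from separate animals, so the p-values rest on the spread among these samples, which may be partly technical. In such bulk RNA, fewer cells that express a gene and less of its RNA per cell cannot be told apart. All levels below are log2 RMA intensities, where 1 unit is a doubling. The median probe set lay between 2.98 and 3.09 on the 6 arrays, and 56.2% of genes had a mean under 4 in both populations, a level treated here as near the lower end of the scale. Levels of different probe sets are not comparable with each other.

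The sort labels were set against marker lists. Of 7 measured stem and multipotent progenitor markers, 6 were higher in LSK, and of 10 markers of committed erythroid and myeloid progenitors 7 were lower in LSK. Slamf1, a stem cell receptor, lay near the lower end in both (3.44 ± 0.27 in LSK and 3.40 ± 0.26 in LK, SD, n = 3 each). The gene for Sca1 is not analysed here. Markers of mature B cells had a mean under 4 in both populations for 6 of 7 genes, those of T cells for 7 of 8, and those of NK and innate lymphoid cells for 7 of 8, the exception there being Nkg7, which myeloid progenitors also express. One dim gene of that last list, Gata3, was higher in LSK (3.76 in LSK and 2.47 in LK on average, limma adjusted p = 0.0130). RNA of the neutrophil gene S100a8 was high on every array, from 12.66 to 13.08 in LSK and from 12.25 to 13.19 in LK. Of 7 measured markers of mature neutrophils and monocytes, 0 passed without a block (1 higher and 1 lower at an unadjusted limma p under 0.05), and 3 were higher in LSK in the fit blocked on replicate number, where 7.02% of all genes were called higher. Those 3 were the neutrophil granule genes Ltf, Camp and Ngp, with log2 differences of 0.87, 1.17 and 0.57 (blocked adjusted p = 0.0154, 0.0378 and 0.0439), each higher in LSK in 3 of 3 same-numbered pairs. The part of these cells in the members' differences was not tested. The arrays numbered 2 stood apart from the others on the second principal component (-31.7 in LSK and -41.2 in LK, against 7.25 to 29.8). The 3′ minus 5′ signal of the Actb and Gapdh controls, on the log2 scale, was 2.64 ± 0.56 in LSK and 3.53 ± 0.36 in LK (SD, n = 3 each). It was higher on average in LK, but the arrays overlapped, with 2.32, 2.32 and 3.30 in LSK and 3.26, 3.94 and 3.40 in LK.

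The comparison asked which members of the families differ between stem-enriched and committed progenitors. Helios (Ikzf2) and E2-2 (Tcf4) were higher in LSK cells, by 4.48-fold and 2.86-fold. The other 8 members did not pass the threshold, a limma p of 0.05 after Benjamini-Hochberg adjustment over all 18193 genes, and 4 of those 8 (Ikzf3, Tcf3, Id1 and Id3) had means under 4 in both populations. So 2 of 10 members were higher and 0 lower (also 2 and 0 at an unadjusted p under 0.05), where 6.73% of all genes were called in either direction and 3.84% higher in LSK. The median log2 difference of the 10 members was 0.08, beside -0.02 over all genes. The populations did not overlap for 2 of the 10, Ikzf2 and Tcf4, and for 28.0% of all genes. Both calls held when any one array was left out, with limma adjusted p up to 0.0411 for Ikzf2 and 0.0498 for Tcf4. The number of all genes called, 1225, moved far more. Dropping one LSK array left 322 (replicate 1), 679 (replicate 2) or 1269 (replicate 3), and dropping one LK array left 768 (replicate 1), 767 (replicate 2) or 306 (replicate 3). Without LSK replicate 3 the balance turned, with 584 genes higher in LSK and 685 lower, against 699 and 526 with all arrays.

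**Figure D1:**
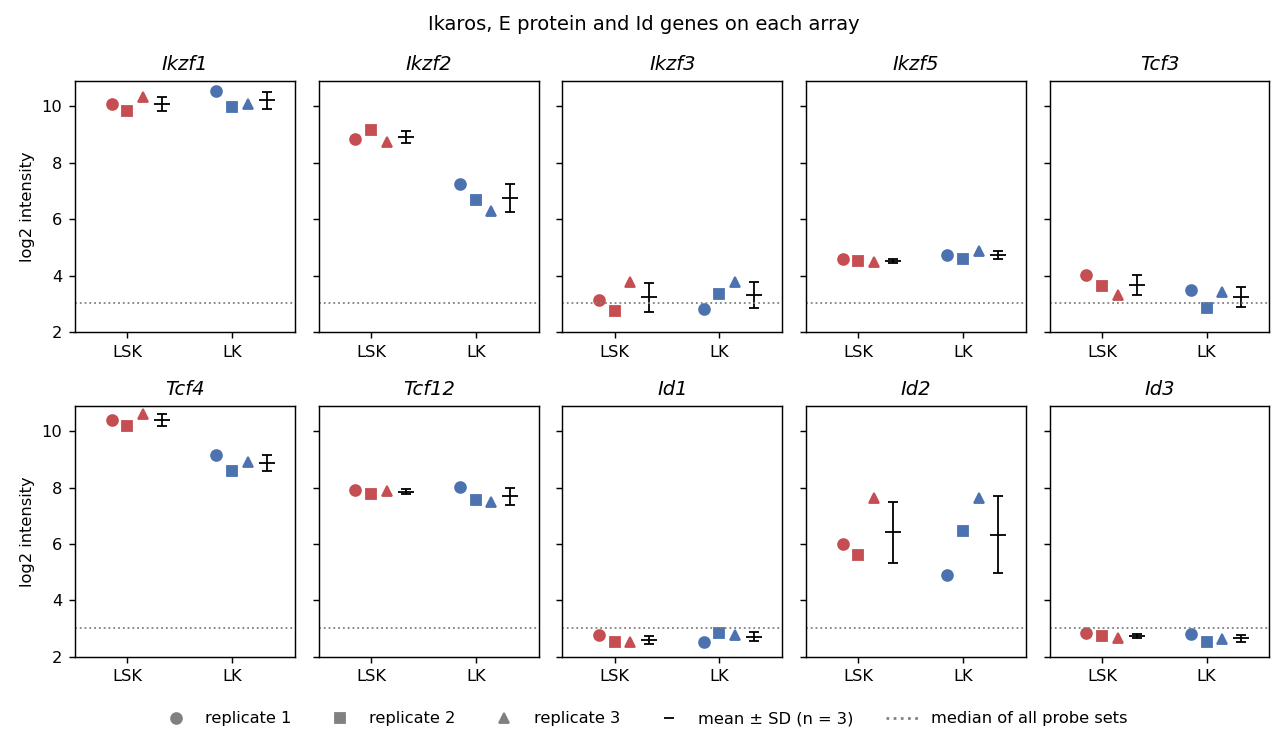
Log2 intensity of each of the 10 genes on each array, with LSK arrays in red and LK arrays in blue, marker shapes for the replicate number, and black bars for the mean ± SD (n = 3). Ikzf2 and Tcf4 separate the populations, Id2 spreads widely within both, and Id1 and Id3 lie below the dotted line, the median of all probe sets averaged over the 6 arrays.

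Among the Ikaros factors, Ikzf1, the founding member, was expressed well above the lower end in both populations, with 10.10, 9.85 and 10.32 in LSK and 10.55, 9.996 and 10.08 in LK. The ranges overlapped and the highest value was an LK array. The log2 difference was -0.12 (SE 0.20, 95% confidence interval -0.60 to 0.36, limma adjusted p = 0.786), and its sign turned to 0.05 without LK replicate 1. The interval leaves out a difference of 2-fold, that is of 1 unit, in either direction. A second Ikzf1 probe set lay at 2.52 ± 0.09 in LSK and 2.50 ± 0.14 in LK (SD, n = 3 each).

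Ikzf2, which encodes Helios, had 8.83, 9.16 and 8.75 in LSK, against 7.26, 6.70 and 6.29 in LK. Every LSK array lay above every LK array, with a gap of over 1 unit between the nearest arrays, and the LK arrays were the more spread. The log2 difference was 2.16 (SE 0.26, 95% confidence interval 1.54 to 2.79, limma adjusted p = 0.00793), and in each of the 3 same-numbered pairs of arrays LSK was the higher one. Another Ikzf2 probe set moved the same way, with 6.11, 7.02 and 6.16 in LSK and 4.66, 5.08 and 3.74 in LK. Its log2 difference of 1.94 missed the threshold over all 45037 probe sets (adjusted p = 0.0556), and it passed in a fit blocked on replicate number (0.00888). The remaining Ikzf2 probe set was near the lower end in both, at 2.74 ± 0.06 in LSK and 2.54 ± 0.17 in LK (SD, n = 3 each). Averaging the 3 probe sets gave a log2 difference of 1.43 for the gene (adjusted p = 0.0209).

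With the 3′ to 5′ measure as a covariate the log2 difference of Ikzf2 was 1.91 and its adjusted p 0.215, and without both arrays numbered 2 it was 2.02 with an adjusted p of 0.0574. On the 2 arrays with nearly equal values of that measure, LSK replicate 3 and LK replicate 1, Ikzf2 had 8.75 in LSK and 7.26 in LK.

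Helios is also made by T cells, so their markers were set beside Ikzf2. The summed linear intensity of the 8 T-cell markers lay between 68.8 and 85.6 in LSK and between 57.4 and 59.6 in LK, and 1 of them, the adaptor gene Lat, was higher in LSK (log2 4.53 ± 0.29 in LSK and 3.59 ± 0.06 in LK, SD, n = 3 each, adjusted p = 0.0291). The T-cell receptor subunit genes Cd3d, Cd3e and Cd3g stayed between 2.20 and 3.01 on all 6 arrays, near the lower end. For 3 of the 8 markers, Lat, Cd3d and Cd4, every LSK array lay above every LK array. Over all genes, 28.0% did not overlap in either direction. Cd3d had 2.97, 2.91 and 2.87 in LSK and 2.75, 2.65 and 2.61 in LK. Cd4 had 2.93, 3.99 and 2.89 in LSK and 2.77, 2.78 and 2.76 in LK. Neither passed the threshold (limma adjusted p = 0.287 for Cd3d and 0.399 for Cd4). The part of T cells in the Ikzf2 difference was not tested further.

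Ikzf3 (Aiolos), a factor of later B-cell and T-cell stages, had 3.14, 2.76 and 3.79 in LSK and 2.84, 3.35 and 3.78 in LK. The groups overlapped and all 3 of its probe sets lay under 4 in both populations, and its values there cannot be read as expression. Its log2 difference of -0.09 (SE 0.33, adjusted p = 0.913) changed sign when LSK replicate 2 (0.15) or LK replicate 3 (0.14) was left out. Ikzf5 (Pegasus) had 4.60, 4.53 and 4.47 in LSK and 4.73, 4.58 and 4.88 in LK. These lay just above the lower end, with the lowest LK array inside the LSK range and LSK lower in 3 of 3 same-numbered pairs. The log2 difference was -0.20 (SE 0.13, 95% confidence interval -0.51 to 0.12, adjusted p = 0.462).

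The excess of Ikzf2 was set directly against the other detected Ikaros factors as a ratio within each array, a comparison chosen after the values were seen. The log2 difference between LSK and LK was larger for Ikzf2 than for Ikzf1 by 2.29 (SE 0.26) and than for Ikzf5 by 2.36 (SE 0.29), and in both comparisons the LSK and LK arrays did not overlap. An exact two-sided permutation test gave p = 0.1 for each, also after adjustment over the 3 ratios compared, and no smaller p can come from 3 arrays against 3.

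Among the E proteins, Tcf4 (E2-2), which is also the lineage factor of plasmacytoid dendritic cells, had 10.38, 10.19 and 10.61 in LSK, against 9.14, 8.58 and 8.92 in LK. The populations were separated by about 1 unit at their nearest arrays, and LSK was higher in 3 of 3 same-numbered pairs. The log2 difference was 1.52 (SE 0.19, 95% confidence interval 1.06 to 1.98, limma adjusted p = 0.00910). Tcf4 had 6 probe sets, the most of any member, and 4 of them passed the threshold, all higher in LSK, where 2.03% of all probe sets were called higher. These 4 had log2 differences of 1.52, 1.08, 1.76 and 1.05, and the last carries the suffix of possible cross-hybridisation. A probe set that lay under 4 in both populations also leaned to LSK, with 3.33, 3.85 and 4.24 in LSK and 2.85, 2.54 and 2.90 in LK (log2 difference 1.04, adjusted p = 0.0775). The last one was near the lower end, with a log2 difference of -0.10 (adjusted p = 0.868).

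With the 3′ to 5′ measure as a covariate the log2 difference of Tcf4 was 1.53 with an adjusted p of 0.203, the size nearly as before and the error larger. On the 2 arrays nearly equal in that measure Tcf4 had 10.61 in LSK and 9.14 in LK. Of 8 plasmacytoid dendritic cell markers, 6 had a mean under 4 in both populations, and 0 were past the threshold (1 higher and 2 lower at an unadjusted p under 0.05). Their summed intensity on the linear scale lay between 95.2 and 178 in LSK and between 206 and 270 in LK. The lower sum in LSK comes from the 2 brighter markers, Irf8, which myeloid progenitors also express (5.32 in LSK and 7.07 in LK on average), and Klk1 (4.73 in LSK and 5.98 in LK). Both were lower in LSK in the fit blocked on replicate number (adjusted p = 0.0256 and 0.0279). The other 6 had log2 differences from -0.14 to 0.48. Siglech, a receptor of these cells, was near the lower end at 2.68 ± 0.02 in LSK and 2.68 ± 0.17 in LK (SD, n = 3 each). The part of these cells in the Tcf4 difference was not tested.

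Tcf12 (HEB), which pairs with E2A in thymocyte development, had 7.93, 7.76 and 7.87 in LSK and 8.02, 7.55 and 7.48 in LK. The LK arrays spanned all the LSK values. The log2 difference was 0.17 (SE 0.18, 95% confidence interval -0.25 to 0.59, adjusted p = 0.642). Of its 5 probe sets, none passed, 2 had positive and 3 negative log2 differences, from -0.36 to 0.53, and their average gave -0.002. Tcf4 was also set against Tcf12 as a ratio within each array, a comparison chosen after the values were seen. The log2 difference of Tcf4 was the larger by 1.35 (SE 0.17), with no overlap between populations. The exact two-sided permutation p was 0.1, which is the smallest possible and stays 0.1 after adjustment over the 3 ratios.

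Tcf3, the gene of E2A, which is needed for lymphoid priming of multipotent progenitors, was dim on this array. It had 4.03, 3.64 and 3.31 in LSK and 3.49, 2.85 and 3.41 in LK, and the populations overlapped. The log2 difference of 0.41 (SE 0.25, adjusted p = 0.405) turned to -0.18 with the 3′ to 5′ measure as a covariate. All 3 Tcf3 probe sets had means under 4 in both populations, so these arrays do not tell whether E2A RNA differed. Older names of other genes overlap here: probe sets of Tcf7l1 and Tcf7l2, Wnt pathway factors once also called Tcf3 and Tcf4, were not counted.

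**Figure D2:**
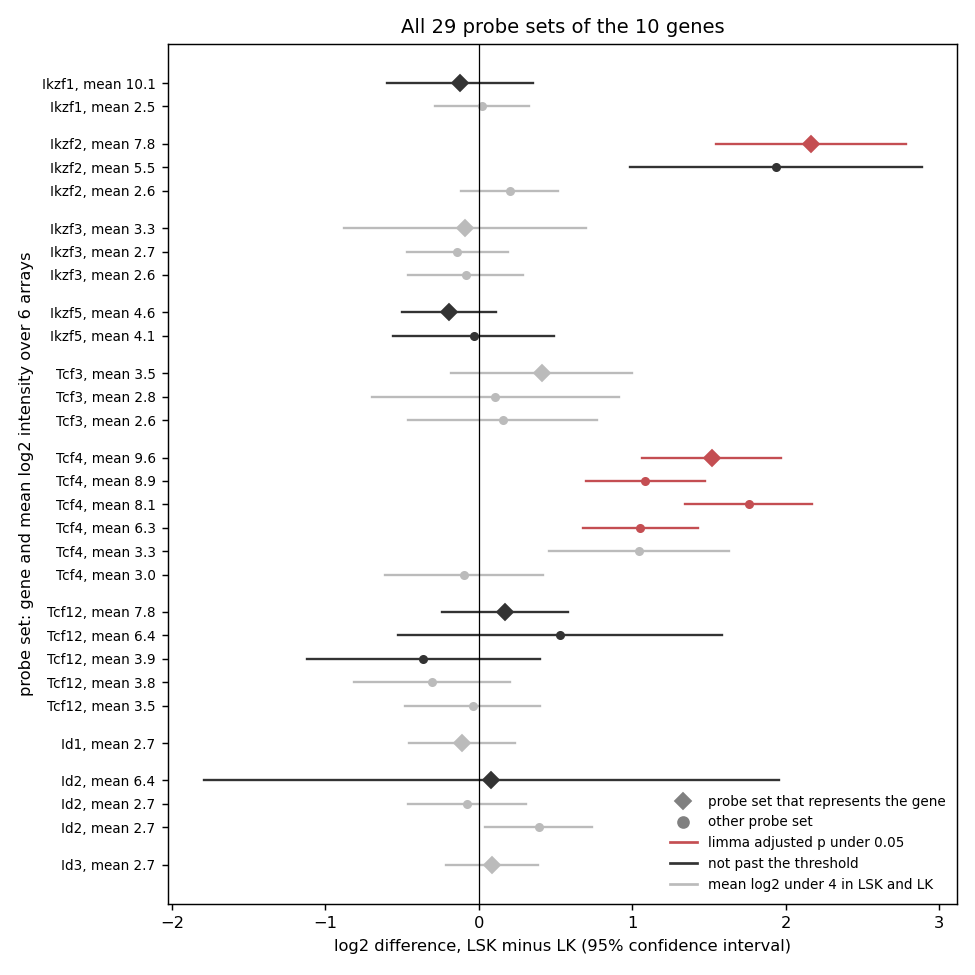
Log2 difference (LSK minus LK) with its 95% confidence interval for each of the 29 probe sets, grouped by gene and labelled with the mean log2 intensity over the 6 arrays; diamonds mark the probe set that represents the gene. The 5 probe sets past the threshold (red) belong to Ikzf2 (1) and Tcf4 (4), all to the right of 0, and 16 of the 29, those with means under 4 in both populations, are in grey.

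Over the 29 probe sets of the members, 5 were higher in LSK and 0 lower, and 7 were higher when the fit held the replicate number as a block, where 4.95% of all probe sets were called higher. The 2 added by the block were the second Ikzf2 probe set and the dim Tcf4 one. The count of 5 became 1 without LSK replicate 1, 3 without LSK replicate 2 or LSK replicate 3, and 0 without LK replicate 3.

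Among the Id genes, 0 of 3 passed the threshold and 0 had an unadjusted limma p under 0.05. Id1, a target of BMP signalling reported in stem cells, had 2.77, 2.54 and 2.52 in LSK and 2.53, 2.86 and 2.76 in LK. Id3, another such target, had 2.83, 2.73 and 2.68 in LSK and 2.80, 2.54 and 2.64 in LK. Each has 1 probe set on the array, both lay below the median probe set on all 6 arrays, and the log2 differences were -0.11 (SE 0.15, adjusted p = 0.732) and 0.09 (SE 0.13, adjusted p = 0.757). Neither transcript was measured above the lower end in LSK or LK.

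Id2, which opposes E proteins in innate lymphoid, dendritic and myeloid cells, had 6.01, 5.60 and 7.63 in LSK and 4.90, 6.47 and 7.63 in LK. It was the most variable of the 10 members within a population, with a range of 2.04 in LSK and 2.73 in LK. The third array of both populations was the highest, and the populations overlapped over most of their range. The log2 difference was 0.08 (SE 0.78, 95% confidence interval -1.79 to 1.95, adjusted p = 0.968). This interval covers a difference of over 3-fold in either direction, so this fit does not exclude a difference of that size. In the fit blocked on replicate number the log2 difference was the same with an SE of 0.37 (adjusted p = 0.917). Without the block, the sign turned when LSK replicate 3 (-0.53) or LK replicate 1 (-0.63) was left out. With the 3′ to 5′ measure as a covariate the log2 difference was 1.54 (SE 1.01, limma adjusted p = 0.754). The other 2 Id2 probe sets had means under 4 in both populations. One of them did not overlap, with 2.75, 2.87 and 2.98 in LSK and 2.54, 2.26 and 2.63 in LK (log2 difference 0.39, limma unadjusted p = 0.0328 and adjusted p = 0.227 over all probe sets), and LSK was higher in 3 of 3 same-numbered pairs.

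Genes of myeloid lineages moved across the arrays beside Id2, and these genes were picked from the marker lists after their values were seen. Csf1r, the macrophage growth factor receptor, had 7.02, 7.88 and 9.47 in LSK and 9.87, 10.60 and 10.47 in LK. Elane, the neutrophil elastase gene, had 7.70, 8.05 and 9.50 in LSK and 10.27, 11.36 and 12.03 in LK. Irf8, a factor of monocyte and dendritic progenitors, had 4.65, 4.83 and 6.50 in LSK and 6.38, 7.43 and 7.38 in LK. In LSK all these genes, like Id2, were highest in replicate 3, and in LK they, like Id2, were lowest in replicate 1, where the erythroid factor Gata1 was highest (Gata1 had 5.53, 4.62 and 5.62 in LSK and 9.78, 7.88 and 7.96 in LK). Over all 10 committed progenitor markers the summed linear intensity lay between 4418 and 8921 in LSK and between 17592 and 26552 in LK. The match was partial. Within LSK, Id2 was lowest in replicate 2 and the 3 myeloid genes in replicate 1, and within LK, Id2 and Elane were highest in replicate 3 but Csf1r and Irf8 in replicate 2. The neutrophil granule genes Ltf, Camp and Ngp were lowest in replicate 2 and, like Id2, highest in replicate 3 of both populations. S100a8, S100a9 and the dim Cd14 had the same order of arrays as Id2 in both populations, and Mmp8 did not. S100a8 had 12.73, 12.66 and 13.08 in LSK and 12.25, 12.70 and 13.19 in LK. The part of myeloid cells, neutrophils included, in the spread of Id2 was not tested.

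**Figure D3:**
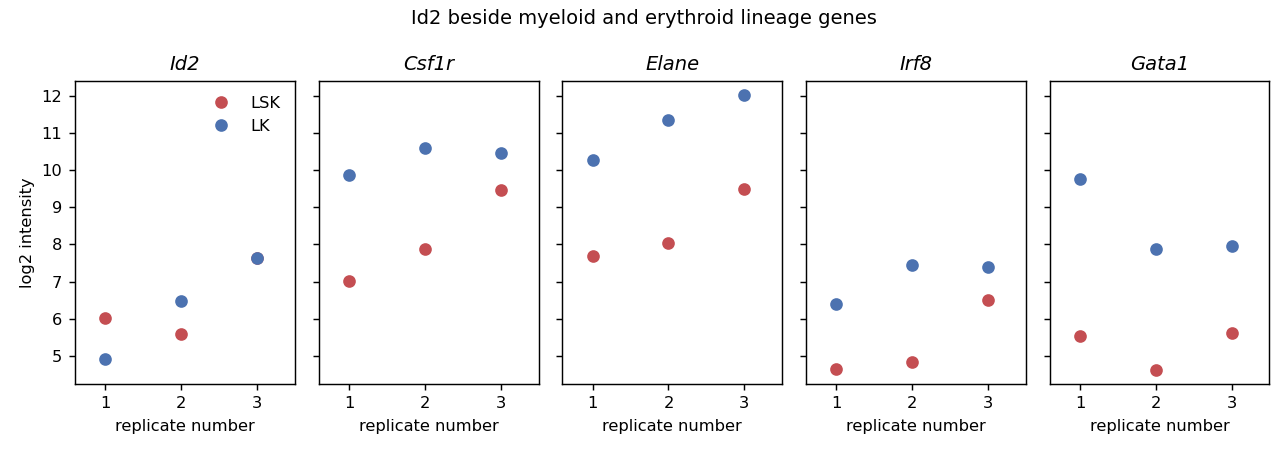
Log2 intensity of Id2, of the myeloid genes Csf1r, Elane and Irf8 and of the erythroid gene Gata1 against the replicate number of the array, with LSK in red and LK in blue. The LSK array numbered 3 is the highest LSK array for Id2 and the 3 myeloid genes, and the LK array numbered 1 is the lowest LK array for the same genes and the highest for Gata1.

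The genes most like Ikzf2 over the 6 arrays were sought among the other 1224 genes past the threshold. They were Cdk17, a cyclin-dependent kinase gene (r = 0.999), Ssh1, a cofilin phosphatase gene (r = 0.998), and Tapt1 (r = 0.994). Cdk17 had 9.56, 9.72 and 9.52 in LSK and 8.90, 8.64 and 8.52 in LK. The 6 points share the split into 2 populations, which raises such an r for any gene past the threshold in the same direction. These are descriptions over 6 arrays with no test. No member was past the threshold in the other direction.

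Genes linked to the families were described from 4 lists. Of 21 measured early lymphoid genes known to need Ikaros or E proteins, 4 passed upward in LSK and 0 downward, leaving 17, with a median log2 difference of 0.30 beside -0.02 over all genes. Those 4 were the DNA polymerase gene Dntt (log2 difference 5.21), the cytokine receptor gene Flt3 (4.02), the chromatin organiser Satb1 (1.75) and, added after its value was seen, the receptor gene Notch1 (1.65), with limma adjusted p from 0.000738 to 0.00487. All 4 calls held without any single array. Flt3 is also counted, by the same probe set, among the stem and multipotent progenitor markers above. Of the 21 genes, 9 had means under 4 in both populations, among them the recombinase gene Rag1 (2.84 to 3.34 in LSK and 2.70 to 2.89 in LK) and the B-lineage factor Pax5 (2.54 to 2.78 in LSK and 2.57 to 2.65 in LK), both also named after their values were seen.

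Among 16 partners and antagonists of E proteins, 2 were higher in LSK and 0 lower, with a median log2 difference of 0.14. Crebbp, the acetyltransferase that E proteins recruit, had 11.62, 11.69 and 11.39 in LSK and 10.64, 10.66 and 10.42 in LK (log2 difference 0.99, SE 0.14, adjusted p = 0.0141). Lmo2, the adaptor that joins Tal1 and E protein dimers to GATA factors, had 11.60, 11.67 and 11.57 in LSK and 11.00, 10.68 and 10.79 in LK (0.79, SE 0.14, adjusted p = 0.0235). Both separated the populations. Crebbp was lost without LSK replicate 1 or LK replicate 3 and Lmo2 without these or LSK replicate 2 or LK replicate 2, with adjusted p up to 0.0677 and 0.100. Dropping replicate 2 of either population left a count of 1, and dropping LSK replicate 1 or LK replicate 3 a count of 0. Tal1 itself, the partner of E proteins in stem and erythroid cells, had 9.16, 8.84 and 9.43 in LSK and 10.08, 9.24 and 8.94 in LK and did not pass (log2 difference -0.28, SE 0.32, adjusted p = 0.674). Cbfa2t3, a corepressor of E proteins, passed in the fit blocked on replicate number (log2 difference 0.98, adjusted p = 0.0115) and not without the block (0.204). Tal1 and Cbfa2t3 were named after their values were seen.

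Of 18 relatives and corepressor partners of Ikaros, 1 was lower in LSK, where 2.89% of all genes were, and 0 higher, with a median log2 difference of -0.03. It was Mbd2, the methyl-DNA binding subunit of NuRD, with 8.61, 8.43 and 8.82 in LSK and 9.63, 9.42 and 9.51 in LK. The populations did not overlap (log2 difference -0.90, SE 0.15, adjusted p = 0.0209). Dropping replicate 1 of either population, LSK replicate 2 or LK replicate 3 ended the call of Mbd2 (highest adjusted p 0.0867) and left a count of 0. Chd4, the remodelling ATPase of NuRD, had a log2 difference of 1.07 (SE 0.38, adjusted p = 0.160), and Hdac1 and Hdac2, its deacetylases, -0.57 and -0.71 (adjusted p = 0.179 and 0.0620). Ikzf4 (Eos), the remaining Ikaros relative, lay near the lower end, between 2.66 and 2.94 in LSK and between 2.62 and 3.18 in LK. These 4 were named after their values were seen. At an unadjusted p under 0.05, 3 genes of this list were higher and 4 lower. With the block Gatad2b, another NuRD subunit, was higher (adjusted p = 0.0392), where 7.02% of all genes were called higher.

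BMP and TGF-beta receptors signal through Smad proteins, and the Smads activated by BMP induce Id1, Id2 and Id3 in many cell types. Of 15 genes of this list 3 passed upward in LSK and 0 downward, leaving 12, with a median log2 difference of 0.23. Smad1, a BMP-activated Smad, had 10.83, 11.05 and 10.69 in LSK and 9.55, 9.81 and 9.67 in LK (log2 difference 1.18, SE 0.15, adjusted p = 0.00922). The BMP receptor Bmpr2 had 9.01, 8.61 and 8.79 in LSK and 7.76, 7.58 and 7.15 in LK (1.31, SE 0.20, adjusted p = 0.0162), and the shared Smad4 had 9.56, 9.63 and 9.17 in LSK and 8.19, 8.52 and 7.93 in LK (1.24, SE 0.21, adjusted p = 0.0206). All 3 separated the populations, while Id1 and Id3 lay near the lower end in both. In the blocked fit 5 genes of the list were higher in LSK, where 7.02% of all genes were. The ones added were Smad7 (adjusted p = 0.0185) and Tgfbr2 (0.0110). The count of 3 fell to 1 without LSK replicate 1 and to 0 without LK replicate 3. Smad4 was also lost without LSK replicate 2 or LK replicate 1. The 3 adjusted p-values reached 0.0530 for Smad1, 0.0708 for Bmpr2 and 0.0849 for Smad4 in fits without 1 array.

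**Figure D4:**
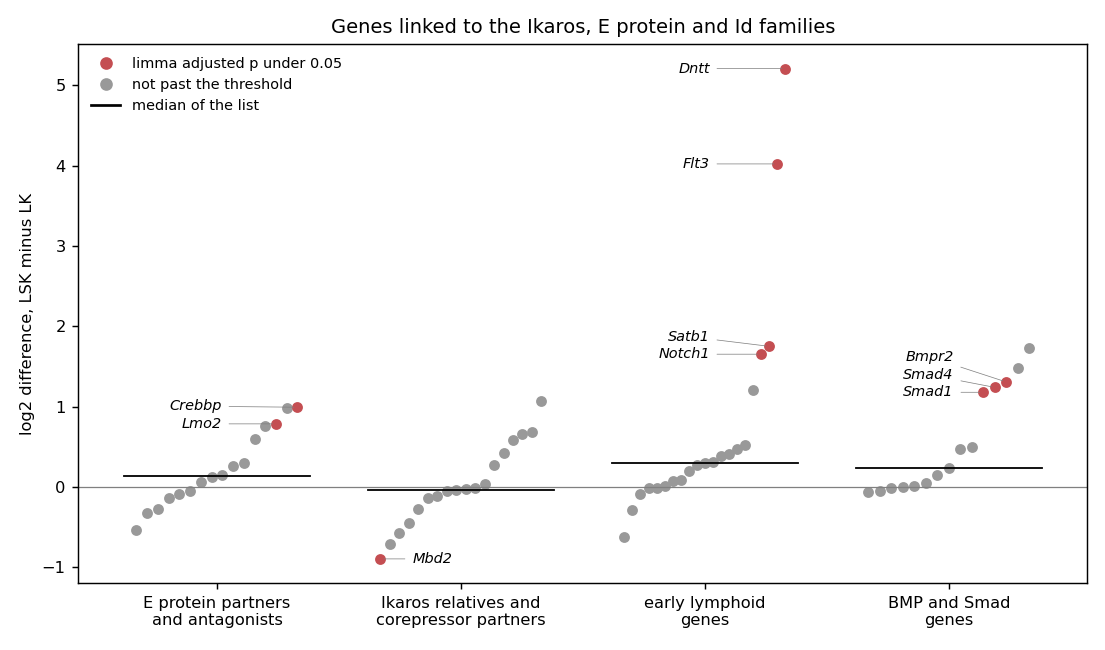
Log2 difference (LSK minus LK) of each measured gene in the 4 linked lists, sorted within a list, with genes past the limma threshold in red and named, and a black line at the list's median. The early lymphoid list holds the largest differences shown, those of Dntt and Flt3, and Mbd2 is the gene past the threshold that lies below 0.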

How the data were processed

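Per the labels' protocols, linearly amplified and biotin-labelled RNA of the 6 samples was run on Affymetrix mouse arrays. Each deposited intensity is that of a probe set and is linear, not logged, as the values themselves show; RMA, the affy package and R 2.11.0 are named in the submitters' processing notes. RMA normalises arrays to each other by quantiles, so a shift of all genes would not show, and low levels have compressed differences. Scan files and detection calls were not used here.

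The table held 45101 probe sets, 64 of them controls. A single symbol was listed for 34945, several for 932 and none for 9160. Gene identifiers were matched to RefSeq of GRCm38.p6 for current symbols (34741 matched). The populations were tested on log2 intensities by lmFit and eBayes of limma 3.58.1 (R 4.3.3; two-sided, Benjamini-Hochberg over all genes), checked on simulated data. Members, lists and tests were chosen with earlier results of these data known. Named genes are all members, per list up to 3 past the threshold in each direction (otherwise the lowest p), and the 3 genes most like the member with the largest difference. All other genes named, markers and those of the closing section included, were added after their values were seen.

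Replicate numbers were taken to pair the samples from the data, since the labels do not say what they mark. Deviations from the population means correlated at 0.42, 0.43 and 0.27 for equal numbers and at most 0.04 for others, a contrast partly built in. No 2 arrays were identical (0 of 15 pairs). Alternatives were the block, renewed normalisation, a filter on dim genes, other probe set rules, variance models, array weights, the 3′ to 5′ covariate and left-out arrays.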

Additional observations from a re-analysis of the deposited data

How the results depend on the processing

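Ikzf2 and Tcf4 kept their direction under all 10 other settings and without each array (log2 differences from 1.93 to 2.42 for Ikzf2 and from 1.37 to 1.64 for Tcf4 without 1 array). With the 3′ minus 5′ control signal as covariate neither passed (1.91 and 1.53), and 0 members, 25 genes in all, 0 partners of E proteins, 0 Ikaros partners, 2 early lymphoid genes and 0 BMP and Smad genes did. That covariate leaves 3 residual degrees of freedom and is higher on average in LK, with overlapping arrays; its part was not resolved. Without both arrays numbered 2 (4 arrays), 1 member passed, Tcf4, and Ikzf2 did not (2.02). In that fit 537 genes, 0 partners of E proteins, 0 Ikaros partners and 1 BMP and Smad gene passed. With the replicate block 2617 genes (14.4%), 2 Ikaros partners and 5 BMP and Smad genes passed, and it changed no call of a member. Array weights gave 2606 genes and 2 Ikaros partners. Cyclic loess gave 2 Ikaros partners, and averaged probe sets 0. Renewed quantile normalisation, cyclic loess, the filter on dim genes and trend with robust variances each gave 5 BMP and Smad genes. Without 1 array the counts were 306 to 1269 genes, 2 members, 0 to 4 of the members' probe sets, 0 to 3 partners of E proteins, 0 to 1 Ikaros partner, 4 early lymphoid genes and 0 to 3 BMP and Smad genes. Signs turned only for members not past the threshold. Without 1 array log2 differences ranged from -0.24 to 0.048 for Ikzf1, from -0.37 to 0.15 for Ikzf3 and from -0.63 to 0.73 for Id2. The covariate gave 0.54 for Ikzf3, -0.18 for Tcf3 and -0.061 for Id3, the fit without both arrays numbered 2 gave 0.16 for Ikzf3, averaged probe sets gave -0.0018 for Tcf12, and for Id2 a probe set without a suffix gave -0.075 and array weights -0.57. With its sign kept, Id2 moved from 0.08 to 1.54 with the covariate (SE 1.01, limma adjusted p = 0.754). The cause of these changes was not tested. Background correction could not be varied on RMA values.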

Other observations

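Ebf1, Bcl11b, Lef1 and Runx1t1 of the linked lists did not pass the threshold and were highest on the arrays numbered 2 of both populations. They were picked for this pattern after their values were seen, and further genes of the lists share it. Ebf1, the B-lineage factor, had 3.27, 5.76 and 3.54 in LSK and 2.77, 3.42 and 2.76 in LK. Bcl11b, the T-lineage factor, had 4.62, 6.82 and 4.87 in LSK and 4.53, 5.85 and 4.37 in LK. Lef1, a Wnt pathway factor of lymphoid cells, had 3.56, 4.91 and 3.99 in LSK and 3.28, 4.52 and 3.74 in LK. Runx1t1, a corepressor that binds E proteins, had 3.61, 6.10 and 3.84 in LSK and 3.55, 4.54 and 3.21 in LK. The other early lymphoid genes were mixed. Igll1 shared the pattern, with 3.69, 3.95 and 3.84 in LSK and 3.37, 4.92 and 4.03 in LK. So did Ccr9, Ptcra and Pax5, each with means under 4 in both populations. Foxo1, Cd79b, Dntt and Vpreb1 were instead lowest on the arrays numbered 2 of both populations. These arrays had 3.77 in LSK and 3.38 in LK for Foxo1, and 3.76 in LSK and 3.90 in LK for Cd79b. For Dntt they had 11.60 in LSK and 5.94 in LK, and for Vpreb1 2.67 in LSK and 2.96 in LK. On the same arrays Ikzf2 was the highest of LSK and in the middle of LK. The adjusted p of Ebf1, Bcl11b, Lef1 and Runx1t1 between the populations lay between 0.340 and 0.742 in limma.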
